A study of Bos taurus with 16 samples.

Results

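The measurements below cover 9 genes known for neutrophil movement and the receptors that steer it: the chemokine receptors CXCR1, CXCR2 and CXCR4, the growth factor receptor CSF3R, the integrin chains ITGAM and ITGB2, the protease MMP9, the leukotriene cofactor ALOX5AP and the peptide receptor FPR1. Every probe whose gene symbol on the deposited array annotation was one of these 9 was used, whatever its signal. That gave 21 probes of 8 genes among the 43653 probes of the array, and FPR1 had none. The measurements came from bovine whole blood on 16 one-colour (Cy3) Agilent arrays, 4 for each of 4 groups. The cows were lactating female Holstein Friesians, 5 in each arm. The LPS group was day 60 blood of the probiotic cows given lipopolysaccharide (LPS, a component of the outer wall of many bacteria) outside the animal at 100 ng/ml. The probiotic group was day 60 blood of cows fed the Fastrack microbial pack, which holds yeast culture with bacterial and fungal fermentation products, for 60 days. The untreated group was day 60 blood of cows given water only. The day 0 group was blood drawn before the supplement, labelled as from the probiotic arm, and whether it also holds the water arm is not stated. All blood was taken into ACD tubes and kept for 30 min at 37 °C in 5% CO2. The RNA of the animals in each group went into 1 pool that was hybridised 4 times, so every p-value here measures the spread between repeat arrays and not between cows.

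A neutrophil leaves the blood in steps. CXCR1 and CXCR2 read CXCL8-type chemokines and set direction, CXCR4 reads CXCL12 and holds cells in the bone marrow, FPR1 reads formylated peptides from bacteria, and CSF3R takes the G-CSF signal that drives neutrophil production. ITGAM and ITGB2 pair on the surface as an integrin that grips the vessel wall and complement-coated particles; a defect of ITGB2 causes leukocyte adhesion deficiency in Holstein cattle. MMP9 cuts matrix proteins, and ALOX5AP hands arachidonic acid to 5-lipoxygenase for leukotriene synthesis. These genes are used by neutrophils but most are not particular to them, and in whole blood fewer cells of a type and less RNA per cell cannot be told apart.

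The probe sequences matter here because probes of 1 gene gave unlike signals. The only CXCR1 probe and 1 of the CXCR2 probes lie on a stretch that the related receptors share. In the first pair below, capitals mark the bases that are identical where the probes overlap, which is 29 of 38 overlapping bases. The other sequences are a second CXCR2 probe and 2 ITGB2 probes, all read 5′ to 3′ from the deposited annotation.
CXCR1 A_73_P171852: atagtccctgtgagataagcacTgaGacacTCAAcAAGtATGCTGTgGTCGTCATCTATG
CXCR2 A_73_P040406: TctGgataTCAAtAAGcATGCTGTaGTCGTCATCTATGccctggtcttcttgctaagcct
CXCR2 A_73_P038900: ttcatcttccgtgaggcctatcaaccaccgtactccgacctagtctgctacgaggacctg
ITGB2 A_73_P338026: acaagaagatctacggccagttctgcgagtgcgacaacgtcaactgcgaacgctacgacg
ITGB2 A_73_P250486: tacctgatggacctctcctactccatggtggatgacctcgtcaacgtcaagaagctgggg

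The symbols of the array are old. The transcript accession matched the bovine RefSeq table for 18 of the 21 probes. For CXCR2 A_73_115473 and A_73_P038900 that table pairs the accession with CXCR1, and only A_73_P040406 carries an accession it pairs with CXCR2. The symbols of the array are kept below, so a value given for CXCR2 on A_73_115473 or A_73_P038900 may be one of CXCR1. No other probe of the array shared 25 bases in a row with a member probe.

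Signals are background-subtracted scanner units as deposited, and "above background" is the scanner software's call that a spot is well above background. Spots above background made up 22.5 to 42.1% on the LPS arrays, 26.4 to 37.1% on the probiotic arrays, at most 17.9% on the untreated arrays and 8.26 to 23.0% on the day 0 arrays. Arrays of the untreated group were unlike the rest: their median Spearman correlation across probes was 0.40 to 0.58 with their own group and 0.27 to 0.32 with the probiotic arrays. LPS replicate 4 (0.48 with its own group) and day 0 replicate 4 (0.48) also stood apart, against 0.75 to 0.89 on the probiotic arrays. For the tests, log2 signals were set against each array's 75th percentile over the 714 probes above background on all 16 arrays. That level was 1798 to 11207 units on the LPS arrays, 7156 to 12417 on the probiotic arrays, 1080 to 1378 on the untreated arrays and 776 to 2960 on the day 0 arrays. A probe was kept for testing when it was above background on all 4 arrays of at least 1 group, which held for 12249 probes. Each group lay on its own slide, so in every comparison a group's slide cannot be told apart from its condition. Only the LPS and probiotic groups shared a scan day, so in the other comparisons the scan day cannot be told apart either.

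Of the 21 member probes, 10 in 5 genes were kept: 3 of 3 for CXCR2, 1 of 1 for CSF3R, 4 of 6 for ITGB2, 1 of 3 for MMP9 and 1 of 2 for ALOX5AP. The kept probes were above background on all 4 probiotic arrays, except the MMP9 probe, which was kept through the LPS and day 0 arrays. CXCR2 A_73_P038900, ITGB2 A_73_P250486, ITGB2 A_73_P338026 and ALOX5AP A_73_P048031 were kept through the probiotic arrays alone. Selection by the groups where a probe is bright makes a difference from a dim group likelier, so the counts below describe the 10 kept probes and not all members. CXCR1, CXCR4 and ITGAM had no kept probe.

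**Figure D1:**
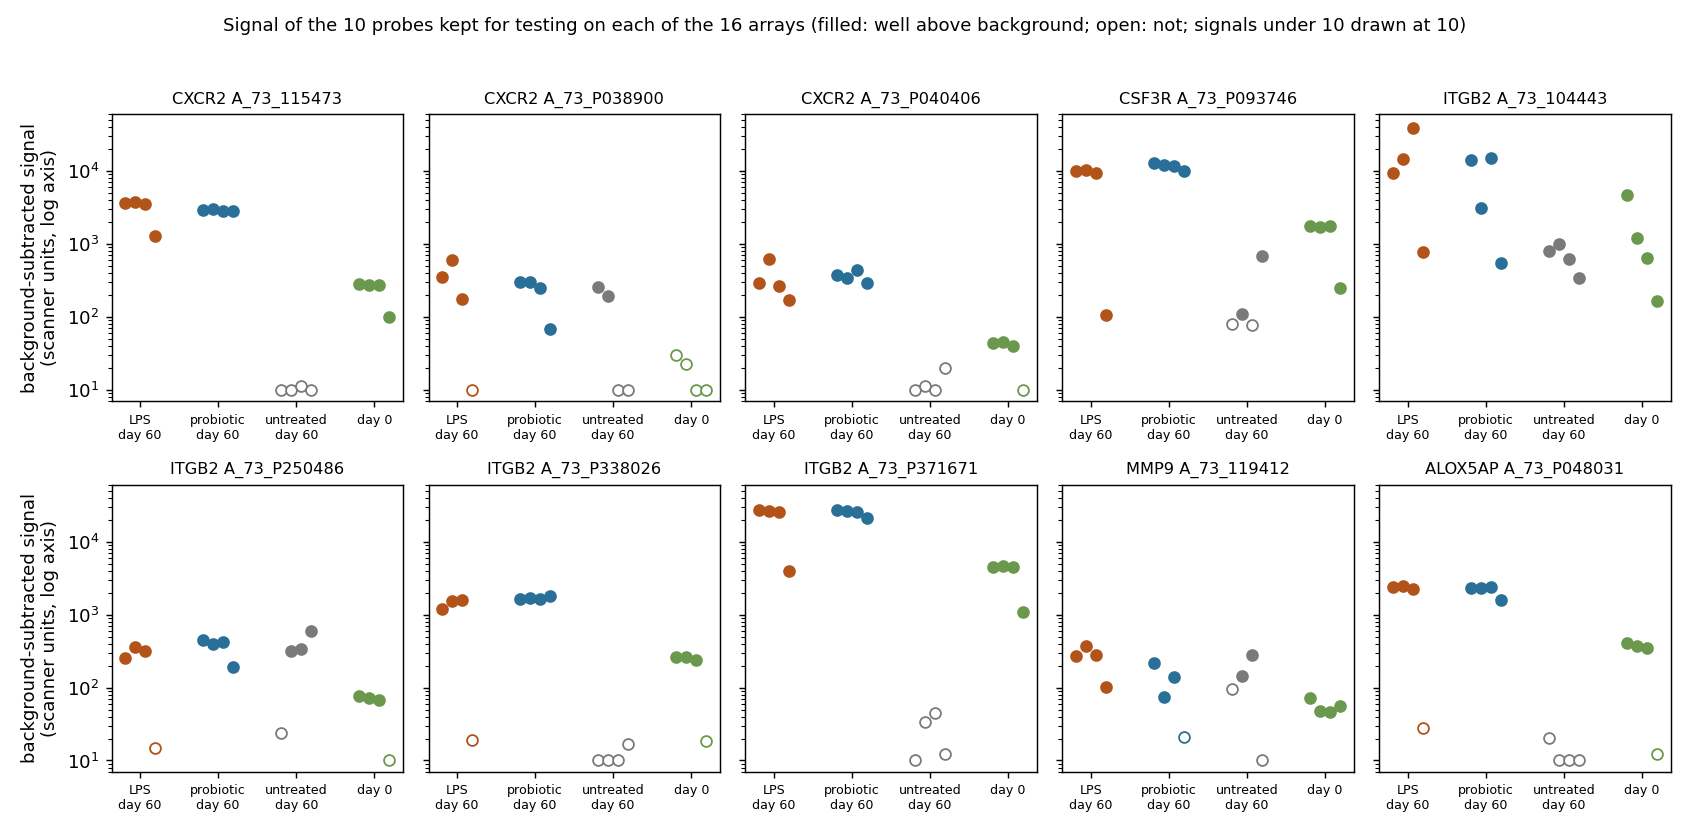
Background-subtracted signal in scanner units (log axis) of the 10 kept probes on every array, with 4 points per group in the order of the replicates. Filled points were well above background, open points were not, and signals under 10 are drawn at 10. On the probe ITGB2 A_73_P371671 the probiotic arrays lie between 20962 and 27146 and no untreated array exceeds 45.

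Setting probiotic against untreated blood at day 60 asks what the supplement went with. Of the 10 kept probes 6 passed as higher, 2 as lower and 2 did not pass (limma, adjusted p under 0.05 and at least 2-fold). Those higher were 2 of CXCR2, 2 of ITGB2 and the probes of CSF3R and ALOX5AP. The CXCR2 probe A_73_P040406 among them has no fold or direction that can be given. Those lower were 1 ITGB2 probe and the MMP9 probe. Over all 12249 probes, 23.7% passed as higher and 35.3% as lower. Counting only passes with a measured fold or a bound above 1, these shares were 22.5% and 28.7%. The median log2 difference was 2.17 over the members and -0.30 over all probes. On 7 of the 10 probes the probiotic and untreated arrays did not overlap after scaling, as on 60.5% of all probes.

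The contrast of probiotic blood at day 60 with day 0 covers the course of the supplement. Of the 10 kept probes 1, CXCR2 A_73_115473, rose and 0 fell, where 6.44% of all probes rose and 3.92% fell. At an unadjusted p under 0.05 the limma counts were 3 higher and 1 lower. The member median was 1.22 on the log2 scale, against 0.59 over all probes. Without day 0 replicate 4 and LPS replicate 4, 2 member probes rose and 0 fell.

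Setting LPS-treated against probiotic blood asks for the response to LPS. This pair was scanned on 1 day but lay on separate slides. By limma 0 of the 10 member probes passed in either direction, where 1.75% of all probes rose and 0.122% fell. At an unadjusted p under 0.05, 1 probe was higher and 0 lower. The member median was -0.02, against -0.10 over all probes. The count was also 0 without LPS replicate 4.

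Setting untreated blood at day 60 against day 0 spans the same period without the supplement. The day 0 blood is labelled as from the probiotic arm, so a change in time cannot be told apart from a difference between cows. Of the 10 kept probes 2 rose and 5 fell, where 40.0% of all probes rose and 16.2% fell. The member median was -0.86, against 0.93 over all probes. Leaving out day 0 replicate 4 gave 3 up and 5 down, and leaving out day 0 replicate 1, 2 or 3, or untreated replicate 2 or 3, gave 2 up and 2 down each. This comparison shares the day 0 arrays with the second and the untreated arrays with the first, so these 3 comparisons are not independent of each other.

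**Figure D2:**
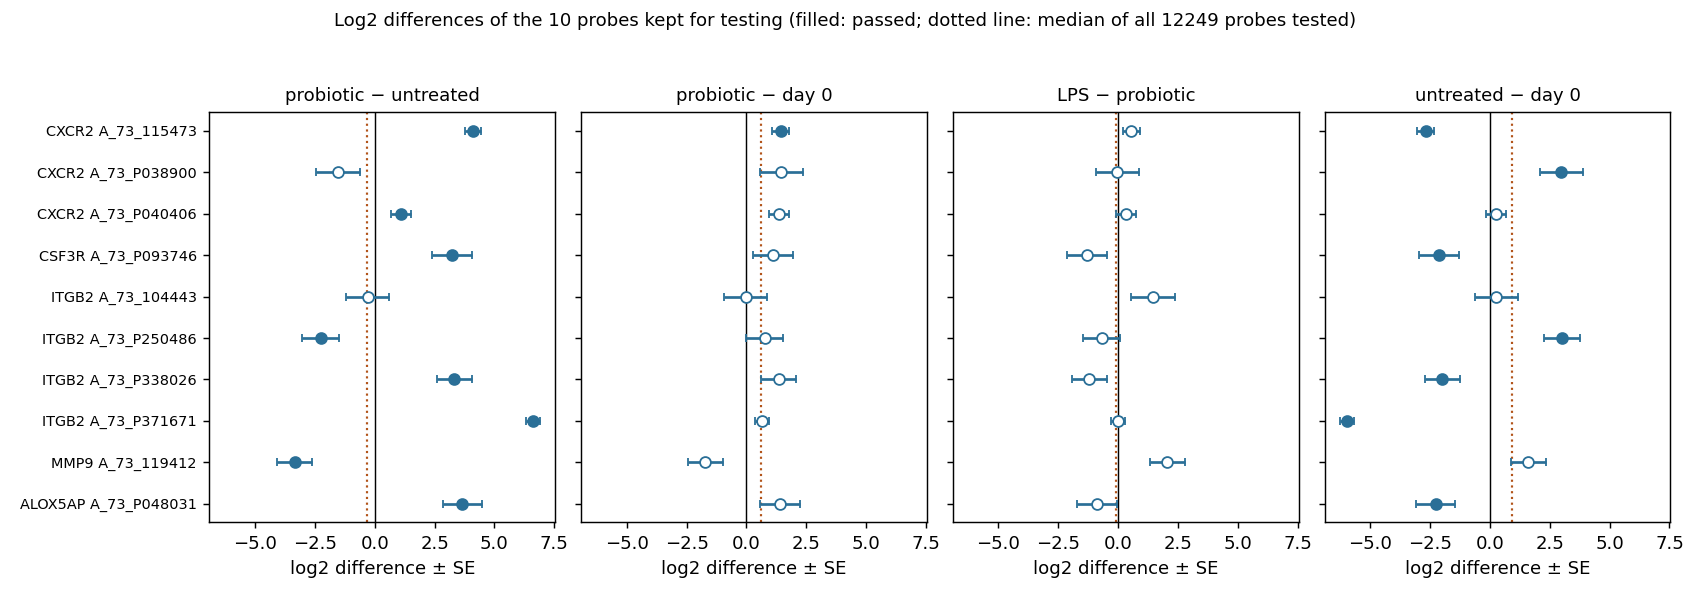
Fitted log2 differences with their standard errors for the 10 kept probes in the 4 comparisons. Filled points passed the test, the solid line marks 0 and the dotted line the median of all 12249 probes tested. In the probiotic minus untreated panel the points run from -3.34 for MMP9 to 6.59 for ITGB2 A_73_P371671, and no point in the LPS minus probiotic panel is filled.

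The chemokine receptors come first, as the readers of the gradient. The CXCR2 probe A_73_115473 gave 3681, 3717, 3544 and 1296 units on the LPS arrays, 2912, 2984, 2804 and 2824 on the probiotic arrays, -7, -4, 11 and -5 on the untreated arrays, and 280, 276, 270 and 100 on the day 0 arrays. The probiotic arrays differed little among themselves and all lay above every untreated and every day 0 array, while the untreated arrays were at background. The rise in probiotic over untreated blood was at least 5.89-fold (limma adjusted p = 2.37e-07), a bound taken because no untreated array was above background. It stands against the lowest signal above background on each untreated array and holds only under this scaling. Against day 0, probiotic blood was higher by 1.42 ± 0.35 on the log2 scale (SE, n = 4 arrays each, limma adjusted p = 0.0192). That call was lost when day 0 replicate 1, 2 or 3 or probiotic replicate 2 or 3 was left out, with adjusted p up to 0.0569. Untreated blood was at least 2.20-fold lower than day 0 (adjusted p = 1.51e-05).

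The CXCR2 probe A_73_P040406, which overlaps the CXCR1 probe, gave 292, 624, 264 and 169 units on the LPS arrays, 371, 346, 443 and 293 on the probiotic arrays, -12, 11, -8 and 20 on the untreated arrays, and 44, 45, 40 and 2 on the day 0 arrays. LPS and probiotic arrays overlapped, and both lay above all untreated and day 0 arrays. Probiotic against untreated blood passed as higher (limma adjusted p = 0.0329), but the bound on the size fell under 1. No fold or direction is therefore given, since the lowest measurable signals set it. The call was lost when untreated replicate 2 or 3 or probiotic replicate 2, 3 or 4 was left out. Against day 0 the difference was 1.35 ± 0.42 with adjusted p = 0.0509, and without day 0 replicate 4 and LPS replicate 4 it was 1.19 with adjusted p = 0.0135.

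The third CXCR2 probe, A_73_P038900, gave 351, 607, 174 and -2 units on the LPS arrays, 296, 304, 250 and 69 on the probiotic arrays, 260, 194, -13 and -54 on the untreated arrays, and 30, 23, 8 and -10 on the day 0 arrays. Untreated replicates 1 and 2 reached the level of the probiotic arrays and replicates 3 and 4 were at background, so arrays of 1 pool disagreed. Probiotic against untreated was -1.54 ± 0.91 (adjusted p = 0.156), and above 0 under 5 of the 9 scalings described further on. Untreated against day 0 passed with untreated higher (limma adjusted p = 0.0108), but 2 of the 4 untreated arrays read at background, so no fold is given, and the call passed under 3 of those 9 scalings (0.50 to 2.99). In probiotic against untreated blood the 3 probes named CXCR2 thus gave a rise, a pass without a direction that can be given, and no call.

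The CXCR1 probe was not above background on any of the 16 arrays. It read 14, 3, 9 and 4 units on the LPS arrays, 5, 1, 15 and 4 on the probiotic arrays, -2, 2, 7 and 63 on the untreated arrays, and -2, 9, 4 and 23 on the day 0 arrays. It overlaps the CXCR2 probe A_73_P040406 by 38 bases, of which 29 are identical. CXCR4 also stayed at background, with 2 exceptions. Its probe A_73_P049211 read 521 on probiotic replicate 1 and 724 on untreated replicate 4, and -29 to 31 on the other 14 arrays. Its probe A_73_100200 read -35 to 16 on all 16. A signal on 1 of 4 arrays of the same RNA pool is not a level of that pool.

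CSF3R, the G-CSF receptor, was above background on all 4 arrays of the LPS, probiotic and day 0 groups. Of the untreated arrays, replicates 1 and 3 were not above background. Its probe A_73_P093746 gave 10116, 10279, 9361 and 105 units on the LPS arrays, 12713, 11954, 11822 and 10089 on the probiotic arrays, 81, 108, 78 and 688 on the untreated arrays, and 1738, 1729, 1767 and 248 on the day 0 arrays. LPS replicate 4 was far dimmer than the other LPS arrays, and untreated replicate 4 was the brightest of its group. Probiotic blood was higher than untreated blood by 3.23 ± 0.83 on the log2 scale (limma adjusted p = 0.00358). Against day 0 it was 1.11 ± 0.83 (adjusted p = 0.399), although all 4 probiotic arrays lay above all 4 day 0 arrays. Untreated against day 0 was -2.13 ± 0.83 (adjusted p = 0.0393), with overlapping arrays, and 6 of the 8 fits that left out 1 array lost the call, as did the fit with the replicate number as a block (adjusted p = 0.0632).

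ITGB2, the shared beta chain of the leukocyte integrins, had 6 probes, which did not behave alike. A_73_P371671 gave 27174, 26571, 25755 and 3992 units on the LPS arrays, 27146, 26438, 25988 and 20962 on the probiotic arrays, -1, 34, 45 and 12 on the untreated arrays, and 4568, 4689, 4480 and 1082 on the day 0 arrays. The untreated arrays were all at background for a probe that was bright on all 12 other arrays. Probiotic blood was at least 51.1-fold higher than untreated blood (limma adjusted p = 1.63e-09), and untreated blood at least 32.8-fold lower than day 0 (adjusted p = 3.53e-09). Against day 0 the probiotic arrays did not overlap the day 0 arrays, but the scaled difference was 0.64 ± 0.29 (adjusted p = 0.178). The LPS arrays differed from the probiotic arrays by -0.02 ± 0.29 (adjusted p = 0.99).

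The ITGB2 probe A_73_P338026 had the same order at a lower signal. It gave 1199, 1553, 1585 and 19 units on the LPS arrays, 1622, 1675, 1623 and 1806 on the probiotic arrays, 10, 2, -3 and 17 on the untreated arrays, and 265, 261, 236 and 19 on the day 0 arrays. LPS replicate 4 and day 0 replicate 4 were at background while their 3 sister arrays were not. Probiotic blood was at least 3.43-fold higher than untreated blood (limma adjusted p = 0.00102). The probe was kept through the probiotic arrays alone, which makes such a rise likelier. Untreated blood was lower than day 0 (limma adjusted p = 0.0281), a call that 5 of the 8 fits without 1 array lost. The fold of 1.36 is not a strict lower bound, with 3 of the 4 day 0 arrays above background.

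The ITGB2 probe A_73_P250486 went the other way. It gave 257, 363, 314 and 15 units on the LPS arrays, 451, 401, 421 and 193 on the probiotic arrays, 24, 319, 336 and 606 on the untreated arrays, and 76, 73, 67 and -1 on the day 0 arrays. In scanner units the probiotic and untreated arrays overlapped; relative to each array's own reference level the untreated ones were higher on average and still overlapped. Probiotic against untreated was -2.26 ± 0.76 (adjusted p = 0.0185), a call lost without untreated replicate 3 or 4. Untreated against day 0 was 3.01 ± 0.76 (adjusted p = 0.00334).

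The remaining ITGB2 probes tell of spread within a pool. A_73_104443 was above background on all 16 arrays, with 9353, 14661, 38519 and 781 units on the LPS arrays, 14240, 3101, 14999 and 548 on the probiotic arrays, 789, 999, 620 and 342 on the untreated arrays, and 4688, 1216, 649 and 167 on the day 0 arrays. Arrays of the same pool differed by up to 49.3-fold, between LPS replicates 3 and 4, and no comparison passed, with limma adjusted p from 0.79 to 0.986. A_73_P250781 shares 54 of its 60 bases with it and was not kept. It gave 1063, 8917, 20047 and 34 units on the LPS arrays, 90, 54, 35 and 58 on the probiotic arrays, 123, 104, 86 and 121 on the untreated arrays, and 20, -1, 15 and 9 on the day 0 arrays. LPS replicates 1, 2 and 3 were far above its other arrays. LPS replicate 4 was not above background and lay below every probiotic array in scanner units. Only after scaling did its LPS and probiotic arrays not overlap, as on 6.29% of the probes kept for testing. The sixth ITGB2 probe, A_73_P450591, was at background on all 16 arrays. The 6 ITGB2 probes together gave 2 rises, 1 fall and 1 probe without a call in probiotic against untreated blood, with the last 2 not kept.

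ITGAM, the alpha chain that pairs with ITGB2, was at background on 46 of the 48 readings of its 3 probes. The exceptions were 134 units on day 0 replicate 2 and 53 on LPS replicate 2, both on the probe A_73_P102166. FPR1 is not analysed here for want of a probe with its symbol.

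MMP9, which cuts gelatin and other matrix proteins, was dim in every group. Its kept probe A_73_119412 gave 275, 367, 281 and 100 units on the LPS arrays, 219, 74, 141 and 21 on the probiotic arrays, 96, 145, 279 and -28 on the untreated arrays, and 71, 48, 47 and 56 on the day 0 arrays. These signals are low, and in scanner units the probiotic and untreated arrays overlapped. Untreated replicates 1 and 4 and probiotic replicate 4 were not above background. After scaling, the probiotic minus untreated difference came out at -3.34 ± 0.73 on the log2 scale (limma adjusted p = 0.00111). Untreated replicate 4 entered it at -5.63, the software's surrogate for dim spots, which lay above every probiotic array (-8.43 to -5.82). The size and the lack of overlap thus rest in part on a dim spot. MMP9 was the 1 kept member probe whose LPS and probiotic arrays did not overlap after scaling, as on 6.29% of all probes, with LPS higher by 2.06 ± 0.73 and adjusted p = 0.327. Untreated against day 0 was 1.61 ± 0.73 (adjusted p = 0.0718), and it passed without day 0 replicate 4 (2.09, 0.0249) or without untreated replicate 4 (2.29, 0.00869). Its other probes, A_73_P098776 and A_73_P101206, were at background on all 16 arrays.

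ALOX5AP, which feeds 5-lipoxygenase, gave 2366, 2508, 2250 and 28 units on the LPS arrays, 2299, 2330, 2387 and 1606 on the probiotic arrays, 21, -16, 2 and -40 on the untreated arrays, and 405, 374, 354 and 12 on the day 0 arrays on its probe A_73_P048031. LPS and probiotic arrays were alike except for LPS replicate 4, and the untreated arrays were at background. Probiotic blood was at least 4.35-fold higher than untreated blood (limma adjusted p = 0.00141). The probe was kept through the probiotic arrays alone, which makes such a rise likelier. Untreated blood was lower than day 0 (limma adjusted p = 0.0289). That call was lost when day 0 replicate 1, 2 or 3 or untreated replicate 2 or 3 was left out. The fold of 1.65 is not a strict lower bound, with 3 of the 4 day 0 arrays above background. The second ALOX5AP probe, A_73_P119496, read 248 on untreated replicate 2 and was not above background on the other 15 arrays.

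Where a probe sat on the array went with whether it was kept. Among the probes within 25 rows of each member probe, the share kept was 17.9 to 59.9% (median 43.6%) for the 10 kept members and 14.5 to 59.9% (median 18.7%) for the 11 members not kept. On the probiotic arrays 60.0% of probes in rows 1 to 28 and 65.7% in rows 505 to 532 were above background, against 14.9% in rows 141 to 168. All 3 ITGAM probes, both CXCR4 probes and the CXCR1 probe lay between rows 88 and 227. The probe base composition did not separate them, since GC content was 35 to 55% (median 45%) in kept and 35 to 60% (median 45%) in other members. The part of array position in these results was not tested.

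**Figure D3:**
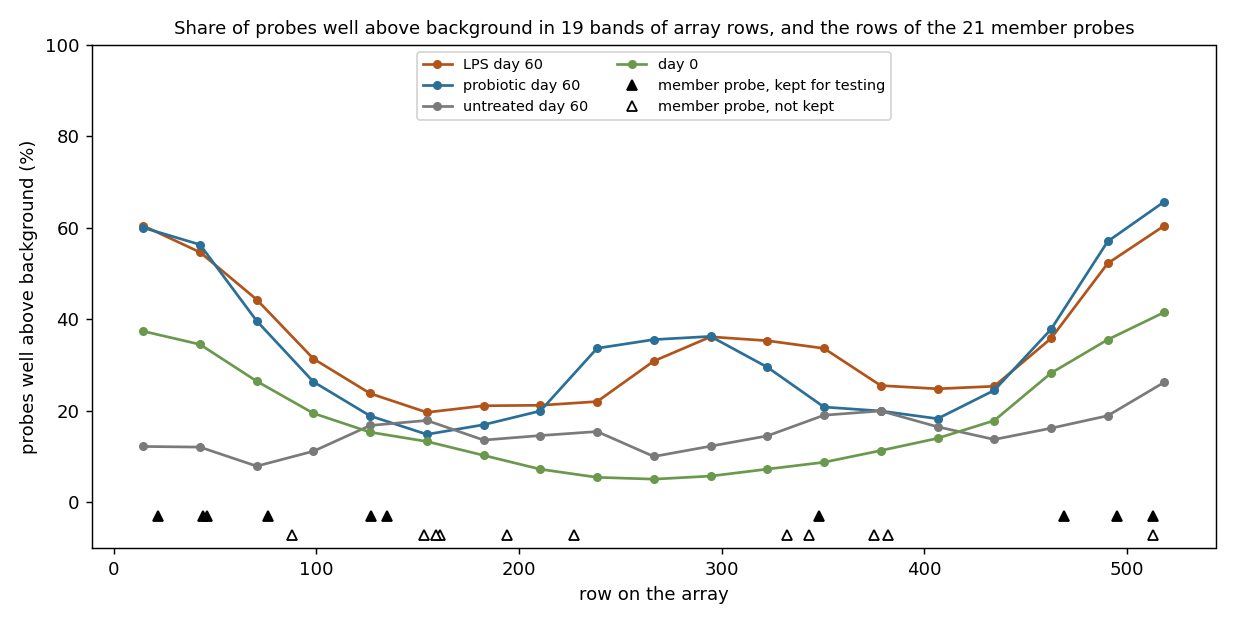
Percent of probes well above background in 19 bands of array rows, averaged over the 4 arrays of each group, with triangles at the rows of the 21 member probes. Filled triangles are the 10 kept probes and open ones the 11 others. The LPS, probiotic and day 0 lines are highest at both ends of the array, and the day 0 line falls to 5.09% in rows 253 to 280.

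Neighbours on the array did not all move like the member. Around ITGB2 A_73_P371671 36.8% of the kept probes within 25 rows rose and 22.2% fell in probiotic against untreated blood, with a median of 0.70 where the member had 6.59. Around ITGB2 A_73_104443, in contrast, 2.58% rose and 71.6% fell, with a median of -3.59 where the member had -0.29. Around MMP9 A_73_119412 14.4% rose and 34.3% fell.

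How the arrays are scaled set the sign of several members. Over 9 ways of scaling or correcting the arrays, the median over all 12249 probes ran from -1.38 to 3.48 in probiotic against untreated blood and from -0.44 to 2.09 in probiotic blood against day 0. Probes called higher and lower over untreated blood numbered 2909 and 4330 as reported, 8592 and 549 with the median over all probes, and 1205 and 4542 with cyclic loess. ITGB2 A_73_P371671 (2.53 to 10.37) and ALOX5AP A_73_P048031 (1.43 to 7.44) rose over untreated blood under all 9. CXCR2 A_73_115473 (1.33 to 7.88) and ITGB2 A_73_P338026 (0.99 to 7.10) were higher under all 9 and passed under 8. CSF3R passed under 8 and was -0.53 with cyclic loess. CXCR2 A_73_P040406 passed under 5 and was negative under 2 (-0.88 with normexp, -0.14 with row bands set to their 90th percentile). The MMP9 fall passed under 4 of the 9 and the fall of ITGB2 A_73_P250486 under 5, and both were positive under at least 1. In LPS against probiotic blood no member passed under any of the 9. In the authors' deposited group averages, whose centring is not known, none of the members that rose over untreated blood differed by 2-fold: the difference was 0.56 for ITGB2 A_73_P371671, 0.41 for ALOX5AP, -0.10 for CXCR2 A_73_115473 and -0.59 for CSF3R.

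**Figure D4:**
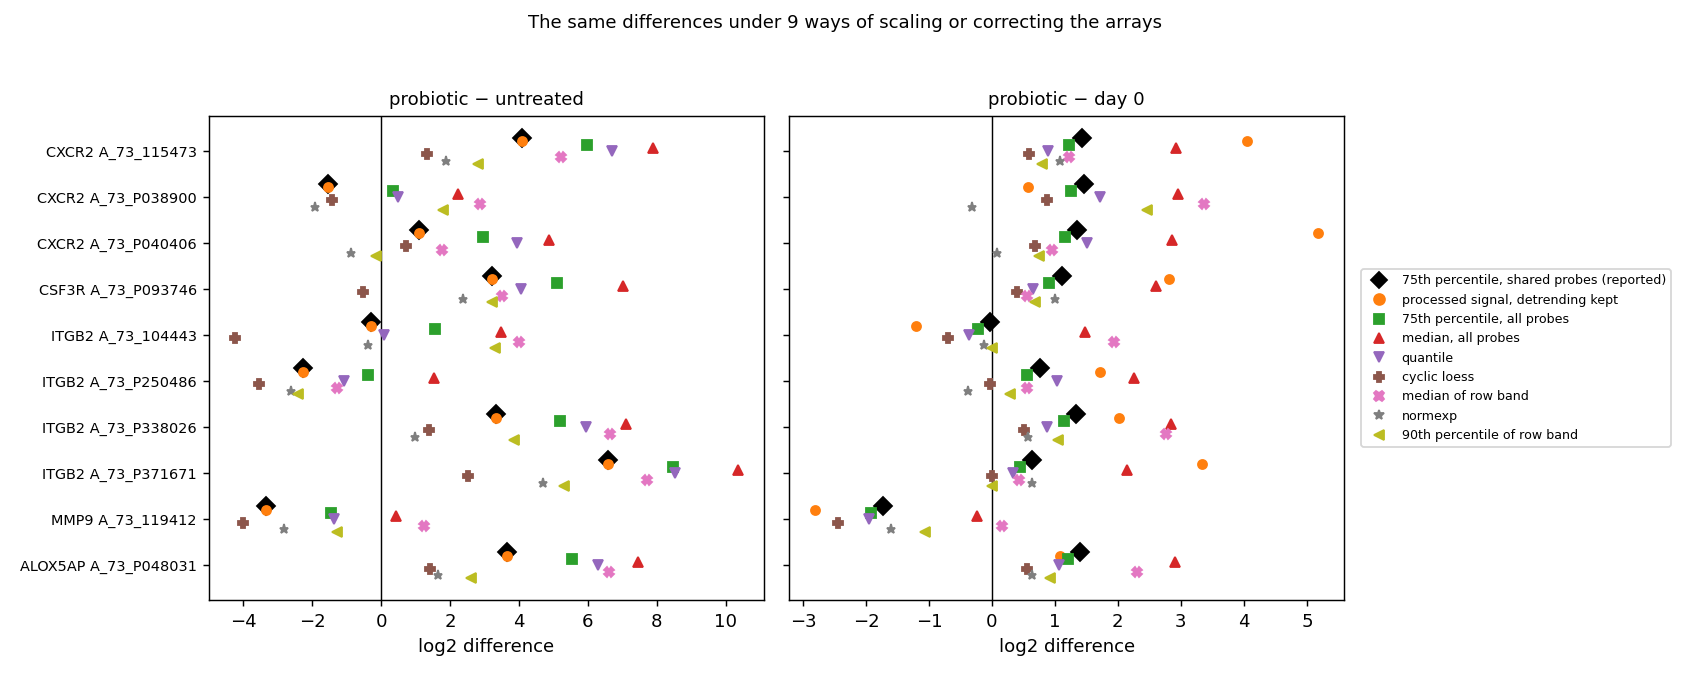
Log2 differences of the 10 kept probes in probiotic minus untreated (left) and probiotic minus day 0 (right) under 9 ways of scaling or correcting the arrays, 1 symbol each, with the black diamond for the reported one. All 9 symbols lie right of 0 in the left panel for ITGB2 A_73_P371671, ITGB2 A_73_P338026, ALOX5AP and CXCR2 A_73_115473.

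The partners of these genes in the same pathways were taken from 6 lists with 73 names, of which 62 were on the array and 42 had a kept probe. A gene that passed limma is counted as risen or fallen only where both groups were measured or a bound above 1 could be given, since otherwise the lowest measurable signals set the direction. A group counted as measured from 1 array above background on, so dim spots can still shape such a difference. In probiotic against untreated blood 12 of the 42 rose and 8 fell, where 22.5% of all probes rose and 28.7% fell by the same rule. A further 3 passed without a direction that can be given. Integrin and chemokine receptor signalling had 5 up and 1 down of 13, with a median of 2.11. TLN1, which couples integrins to actin, was at least 10.6-fold higher (limma adjusted p = 1.42e-06) and RAC2, the GTPase of neutrophil movement, at least 6.15-fold (0.00546). CDC42, another GTPase, was dim in probiotic blood and came out 17.0-fold lower (limma adjusted p = 0.000721). With 2 of the 4 untreated arrays above background, that fold is not a strict lower bound. Among other neutrophil receptors 3 of 8 rose and 1 fell. TREM1, which amplifies inflammatory signals, was at least 26.6-fold higher (limma adjusted p = 2.09e-06). The antibody receptor FCGR2B was higher by 4.11 ± 0.99 (0.00252), with only 1 of the 4 untreated arrays above background. FCGR3A, another receptor for antibody, was at least 2.20-fold higher (0.00446). The fall among these receptors was LTB4R, a leukotriene B4 receptor (limma adjusted p = 0.00684). It was above background on only 1 of the 4 untreated arrays, so dim spots may set its direction and no fold is given. C3AR1 passed but was dim on the untreated arrays and has no direction.

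Adhesion molecules had 3 up and 1 down of 8 in the same comparison. CD47 was at least 1.71-fold higher (adjusted p = 3.36e-05), ITGB1 higher by 1.51 ± 0.59 (0.0366) and SELPLG, which binds selectins, at least 1.01-fold higher (0.0102). Of the 6 kept matrix proteases and inhibitors 0 rose and 4 fell by the rule above. By limma alone 0 passed as higher and 5 as lower, the same counts as at an unadjusted p under 0.05. MMP25, a membrane-bound protease, was -4.10 ± 0.72 (0.000185) and the inhibitor TIMP1 -3.56 ± 0.68 (0.000386), while TIMP2 was dim on the untreated arrays and has no direction. Of 4 leukotriene genes 0 rose and 1 fell by that rule. By limma alone 0 passed as higher and 2 as lower, again the same counts as at an unadjusted p under 0.05. LTC4S, which makes leukotriene C4, came out 33.6-fold lower (limma adjusted p = 0.000384). With 2 of the 4 untreated arrays above background, that fold is not a strict lower bound. LTA4H, which makes leukotriene B4, passed but was dim on the untreated arrays and has no direction. Of 3 kept chemoattractants GRO1, a CXCR2 ligand, rose at least 1.09-fold (0.00763). No list was tested as a set.

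In probiotic blood against day 0, 3 of the 42 (7.14%) rose and 2 (4.76%) fell, where 6.43% of all probes rose and 3.78% fell. GRO1 was at least 5.55-fold higher (limma adjusted p = 0.000582) and ALOX5, the lipoxygenase that ALOX5AP serves, at least 2.68-fold (0.0136). ADRBK1, a kinase that desensitises receptors, was higher by 1.94 ± 0.52 (0.0265), and the complement gene C5 passed but has no fold, as it was dim on day 0. CDC42 was at least 9.66-fold lower (0.0177) and LTC4S at least 10.7-fold lower (0.0218). In LPS against probiotic blood 1 of the 42 (2.38%) passed, where 1.72% of all probes rose: LTA4H was higher by 3.86 ± 0.82 (0.0191). In untreated blood against day 0, 5 (11.9%) rose and 7 (16.7%) fell, where 28.3% of all probes rose and 15.1% fell. A further 6 passed but were dim in both groups: GRO1, C5, C3AR1, IL1R2, ALOX5 and TIMP2. Among the falls TREM1 was at least 13.1-fold lower (1.66e-05). The largest rises were MMP25 (4.94 ± 0.72, 3.88e-05) and TIMP1 (4.52 ± 0.68, 5.44e-05), the last above background on 1 of the 4 day 0 arrays.

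Markers of blood cell types differed between the groups alongside the members. Among 6 neutrophil markers S100A12, a calcium-binding protein of neutrophils, averaged 38187 units on the LPS arrays, 56536 on the probiotic arrays, 49.4 on the untreated arrays and 14288 on the day 0 arrays. The summed signal of the 6 ran from 907 to 71249 on the LPS arrays, 51151 to 77760 on the probiotic arrays, 137 to 394 on the untreated arrays and 1922 to 19439 on the day 0 arrays. S100A8 and S100A9 were above background on 3 probiotic arrays each and on 0 untreated arrays, LTF on 3 probiotic and 2 untreated arrays, and CATHL2 and MPO on 0 of the 16. LTF averaged 96.2 units in probiotic and 115 in untreated blood. Only 3 of the neutrophil markers had a kept probe. After scaling, 1 of these passed as higher in probiotic than in untreated blood, 1 passed as lower and 1 did not pass (limma). The summed markers of most other cells were also lower on the untreated than on the probiotic arrays, although not every single marker was. These sums are not scaled, and the untreated arrays were dimmer as a whole. After scaling, the kept markers had these median log2 differences in probiotic against untreated blood, where all probes had -0.30. They were 2.57 for neutrophil, 2.77 for killer cell, 1.81 for B cell and 0.61 for erythroid markers. For T cell, platelet and monocyte markers they were 0.16, -0.15 and -3.53. CD163, NCR1 and SLC4A1, markers of monocytes, killer cells and red cells, were above background on 0 of the 16 arrays. The 5 T cell markers summed to 330 to 13159 on the LPS, 9473 to 11805 on the probiotic, 454 to 1128 on the untreated and 259 to 2784 on the day 0 arrays. The 4 killer cell markers summed to 3228 to 14334 on the LPS, 11458 to 13081 on the probiotic, 179 to 675 on the untreated and 760 to 2269 on the day 0 arrays. The 4 B cell markers summed to 8300 to 23406 on the LPS, 21274 to 26281 on the probiotic, 2434 to 8784 on the untreated and 3070 to 5781 on the day 0 arrays. The 4 monocyte markers summed to 351 to 7129 on the LPS, 7169 to 7620 on the probiotic, 182 to 632 on the untreated and 309 to 1636 on the day 0 arrays. CSF1R made up most of that probiotic sum, with means of 7165 units in probiotic and 16.4 in untreated blood. CD14 averaged 191 in probiotic and 309 in untreated blood, and CD68 averaged 1.31 in probiotic and 45.0 in untreated blood. After scaling, CD14 (-3.53) and CD68 were lower in probiotic than in untreated blood (limma adjusted p = 2.38e-05 and 9.24e-05). CD68 was above background on only 1 of the 4 untreated arrays, so no fold is given for it. The 6 erythroid markers summed to 9633 to 229023 on the LPS, 176798 to 236276 on the probiotic, 2266 to 35275 on the untreated and 2459 to 57221 on the day 0 arrays. The 3 platelet markers summed to 72.5 to 3116 on the LPS, 408 to 731 on the probiotic, 34.6 to 111 on the untreated and 55.9 to 180 on the day 0 arrays. The 2 eosinophil and basophil markers on the array, CCR3 and EPX, summed to at most 92.6 on any array. Over these 34 markers, the part of cell makeup or overall brightness in the members' differences was not tested.

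The 5 genes whose log2 signal was most like the mean of the brightest kept probe of each of the 5 kept members, among 3821 probes above background on at least 12 arrays, were SORL1 (Pearson r = 0.988 over the 16 arrays), AP1B1 (0.988), SRSF11 (0.988), C28H10orf54 (0.987) and CGGBP1 (0.987). These values are a description, since the 16 arrays fall into 4 groups and share their pools and scaling.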

How the data were processed

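Blood RNA pools of 4 groups were measured on 16 arrays. Each deposited scanner file holds 1 array; its values are background-subtracted intensity, not yet normalized across arrays, per the file headers. The submitters' processing notes name Agilent Feature Extraction, version 10.10.1.1. On day 0 replicates 2, 3 and 4 and LPS replicate 4 the deposited processed intensity also carries a smooth position factor, which was left out here by using the background-subtracted signal (or the software's surrogate for dim spots). The authors also deposited group averages on a log2 scale, whose centring is not given in the sources used here; they served only as an alternative. The genome build behind the probes was not used, so no positions are given.

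Outlier spots were dropped, spots of a probe were averaged, and log2 signals were scaled to the 75th percentile over 714 shared probes, because most probes were not detected. Comparisons used limma (version 3.58.1, lmFit and eBayes, under R version 4.3.3), two-sided, in 1 fit of 16 arrays and 12249 probes with Benjamini-Hochberg adjustment; tables used pandas 2.3.3 and figures matplotlib 3.10.9. A probe passed at adjusted p under 0.05 and 2-fold. The code was tested on simulated data. Dim groups give bounds: the bright group's mean over the dim group's, where each dim array counts at least the lowest signal that was above background on it. Where arrays of the bright group were themselves not above background, the value is not a strict lower bound. The normexp alternative used median spot signals. Precision is limited by there being 4 arrays a group. Every member probe is given. From each pathway list, named genes are among the called ones with the largest folds, at most 3 a direction, and some that the rule names are not reported here; a list gene stands by its brightest kept probe. The members and lists were chosen with earlier results of these data known. The closing section gives the effect of the alternatives, of which 2, the 90th percentile of row bands and leaving out the 2 arrays that stand apart, were chosen after seeing the data.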

Additional observations from a re-analysis of the deposited data

Results flagged for a closer look

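In 10 of 44 tests of a group of 4 arrays, 1 array lay far from the other 3; chance alone flags about 1 in 20 such groups, and arrays recur among them. Values are scaled log2 signals, with the nearest other array of the group beside them. LPS replicate 4 was the lowest of its group on CSF3R (-4.09, nearest -0.24), ITGB2 A_73_P338026 (-6.54, nearest -3.02), ITGB2 A_73_P250486 (-6.92, nearest -5.24) and ALOX5AP (-6.03, nearest -2.30). Probiotic replicate 4 was the highest of its group on CSF3R (0.50, nearest 0.11). Untreated replicate 4 was the highest of its group on CSF3R (-0.90, nearest -3.67). Day 0 replicate 4 was the lowest of its group on CXCR2 A_73_P040406 (-6.65, nearest -6.06), ITGB2 A_73_P338026 (-5.39, nearest -3.48), ITGB2 A_73_P250486 (-6.65, nearest -5.29) and ALOX5AP (-5.96, nearest -2.92). LPS replicate 4 and day 0 replicate 4 are 2 of the 4 arrays that the scanner software had detrended.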

How the results depend on the processing

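In all, 13 other settings were tried, and 2 more chosen after seeing the data. Of the single-probe differences, 160 of 205 in probiotic against untreated, 177 of 215 in probiotic against day 0, 183 of 215 in LPS against probiotic and 150 of 215 in untreated against day 0 kept their direction and their side of the threshold. Values in parentheses are log2 differences by setting, where percentile and median are over all probes and row bands are set to their median. In probiotic against untreated the sign turned for CXCR2 A_73_115473 (authors' averages -0.10), CXCR2 A_73_P038900 (75th percentile 0.34, median 2.24, quantile 0.49, row bands 2.87, row-band 90th percentile 1.81), CXCR2 A_73_P040406 (normexp -0.88, row-band 90th percentile -0.14, authors' averages -0.035), CSF3R (loess -0.53, authors' averages -0.59), ITGB2 A_73_104443 (75th percentile 1.58, median 3.48, quantile 0.075, row bands 4.00, row-band 90th percentile 3.32), ITGB2 A_73_P250486 (median 1.52) and MMP9 (median 0.44, row bands 1.23). With 1 array left out, ITGB2 A_73_104443 ranged from -0.85 to 0.53. In probiotic against day 0 the sign turned for CXCR2 A_73_P038900 (normexp -0.31), ITGB2 A_73_104443 (median 1.47, row bands 1.94, row-band 90th percentile 0.0097), ITGB2 A_73_P250486 (loess -0.025, normexp -0.39), ITGB2 A_73_P371671 (loess -0.0014, authors' averages -1.49), MMP9 (row bands 0.17) and ALOX5AP (authors' averages -0.98). With 1 array left out, ITGB2 A_73_104443 ranged from -0.59 to 0.80. In LPS against probiotic the sign turned for CXCR2 A_73_115473 (detrending kept -0.14, median -0.27, authors' averages -1.06), CXCR2 A_73_P038900 (detrending kept 0.083, normexp 0.72, 2 arrays left out 0.69), CXCR2 A_73_P040406 (detrending kept -0.42, 75th percentile -0.097, median -0.49, 2 arrays left out -0.046, authors' averages -1.34), ITGB2 A_73_P250486 (normexp 0.086), ITGB2 A_73_P371671 (quantile 0.086, loess 0.42, row-band 90th percentile 0.11, 2 arrays left out 0.021) and ALOX5AP (2 arrays left out 0.094). With 1 array left out, CXCR2 A_73_P038900 ranged from -0.53 to 0.69, CXCR2 A_73_P040406 ranged from -0.046 to 0.61, ITGB2 A_73_P371671 ranged from -0.0895 to 0.065, ALOX5AP ranged from -1.24 to 0.094. In untreated against day 0 the sign turned for CXCR2 A_73_115473 (authors' averages 1.14), CXCR2 A_73_P040406 (75th percentile -1.81, median -2.02, quantile -2.44, loess -0.036, row bands -0.82), CSF3R (loess 0.93, authors' averages 0.78), ITGB2 A_73_104443 (detrending kept -0.92, 75th percentile -1.80, median -2.01, quantile -0.44, row bands -2.06, row-band 90th percentile -3.31, 2 arrays left out -0.076) and MMP9 (75th percentile -0.46, median -0.67, quantile -0.58, row bands -1.07). With 1 array left out, ITGB2 A_73_104443 ranged from -0.076 to 0.88. Many of these differences passed under neither setting. The cause was not tested.

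The member probes called in probiotic against untreated, 8 as reported, were 18 of 21 with no filter on dim probes, 5 of 5 with the brightest probe per gene and 4 in the authors' averages. In probiotic against day 0, 1 as reported, they were 6 with detrending kept, 3 with the median over all probes, 0 with the 75th percentile over all probes, quantile normalization, cyclic loess, normexp and the 90th percentile of row bands, 9 with no filter, 3 with the 2 groups alone, 2 without the 2 arrays that stand apart and 6 in the authors' averages. In LPS against probiotic, 0 as reported, they were 1 with no filter and 8 in the authors' averages, which have no test. In untreated against day 0, 7 as reported, they were 4 with detrending kept, cyclic loess, normexp and the brightest probe per gene, and 17 with no filter. Leaving out 1 array gave 6 to 8, 0 to 1, 0 to 0 and 4 to 8 member calls in these 4 comparisons, and 6643 to 7300, 529 to 1678, 156 to 246 and 6112 to 7390 calls over all probes.

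Over all probes, 7239 were called in probiotic against untreated, and 37120 with no filter, 4459 with the brightest probe per gene and 2422 in the authors' averages. In probiotic against day 0 there were 1269, and 6465 with detrending kept, 5465 with the median over all probes, 3351 with the median of row bands, 341 with normexp, 16646 with no filter, 2466 with the 2 groups alone, 617 with the brightest probe, 2845 without the 2 arrays that stand apart and 8444 in the authors' averages. In LPS against probiotic there were 229, and 82 with quantile normalization, 125 with normexp, 603 with no filter, 97 with the brightest probe and 8252 in the authors' averages. In untreated against day 0 there were 6879, and 35159 with no filter and 4087 with the brightest probe. With no filter and with the brightest probe another number of probes was tested, 43653 and 7324.

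Replicate numbers did not pair the arrays: deviations of same-numbered arrays correlated between -0.18 and 0.27. With the replicate number as a block, 8, 1, 0 and 6 member probes were called in the 4 comparisons, the call lost being CSF3R in untreated against day 0 (adjusted p = 0.0632), and 7432, 1241, 253 and 7033 of all probes.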

Other observations

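A further probe, A_73_113616 in row 520, is described on the array as the 5-lipoxygenase-activating protein but carries no gene symbol, so it was outside the selection. It gave 76, 79, 67 and 21 units on the LPS arrays, 81, 74, 66 and 54 on the probiotic arrays, 500, 444, 329 and 69 on the untreated arrays, and 20, 13, 25 and 5 on the day 0 arrays. Untreated replicates 1, 2 and 3 were thus above every array of the other groups, while untreated replicate 4 was not above background. The ALOX5AP probe A_73_P048031 read -40 to 21 units on the untreated arrays.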
